A study of Mus musculus with 7 samples.

Results

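The genes described here build the chromosome axis of meiosis and hold paired chromosomes together in synapsis. They are Sycp1, Sycp2, Sycp3, Hormad1, Hormad2, Stag3, Syce1, Tex11, Mei4 and Rec8, and their probe sets were taken where the array annotation gave exactly 1 of these 10 symbols. That found 230 of 1201338 probe sets, for 9 of the 10 genes. No probe set carried the symbol Mei4; 12 probe sets carried 4930486G11Rik, an older symbol of the same gene, and its values are given separately. The genes were chosen with their differences between the Mettl3 and luciferase hairpins already known, so these differences are given as a description. Intervals of the fit cover the spread among arrays and not the choice of the genes. Counts of these genes called in this fit stand beside the share over all genes.

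The cells were J-1, a mouse embryonic stem cell line, infected with lentiviruses that carried short hairpin RNAs and grown in full medium. Mettl3 hairpin 1 was used in 2 samples, Mettl3 hairpin 2 in 2 samples and a hairpin against luciferase, which mouse cells lack, in 3 samples; every group therefore carried a lentivirus. Total RNA of each sample was measured on 1 exon array, on which each probe set covers part of a gene; all values below are log2 values. Nothing in the labels tells separate cultures from repeats of 1 culture, so the p-values cover the spread among arrays, and that spread may be technical. In bulk RNA, fewer cells that express a gene and less RNA per cell cannot be told apart.

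Meiotic chromosomes are organised as loops along a protein axis. Cohesins with the meiotic subunits REC8 and STAG3 lie along this axis with the filament proteins SYCP2 and SYCP3, and the HORMA domain proteins HORMAD1 and HORMAD2 mark the parts that have not yet synapsed. Synapsis then joins the axes of homologous chromosomes through transverse filaments of SYCP1, held by central element proteins such as SYCE1, while MEI4 takes part in making the DNA breaks that start recombination and TEX11 in crossover formation. Embryonic stem cells are mitotic and do not enter meiosis under usual culture. In these cells many germ line genes are held down by DNA methylation and by the Polycomb complex PRC1.6, whose subunits E2F6 and MGA bind promoters.

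Promoter windows are shown because the letters of the E2F6 motif (TCCCGC) and of the E-box bound by MGA with MAX (CACGTG) differ among these genes. RefSeq windows (build GRCm38.p6) run from 250 bases before to 50 bases after the gene start and were given for 9 of the 10 genes, Mei4 among them and Tex11 not. Where a gene had several windows, only the one with the lowest start coordinate was used, whereas the shares count all windows. On either strand, TCCCGC was found in 5 of the 9 windows, those of Sycp1, Sycp3, Hormad1, Stag3 and Rec8, and in 6562 of all 32851 windows. CACGTG was found in 4 of the 9, those of Sycp1, Sycp3, Hormad1 and Stag3, and in 7.15% of all windows; no matches overlapped in these 9 windows. All 9 windows held more CpG dinucleotides (10 to 30) than the median window (7). Both motifs contain a CpG, and the shares over all windows were not matched for CpG content. The sequences below are on the gene's strand, 5′ to 3′, with both motifs in capitals on whichever strand they matched. The windows of Hormad1 (chr3:95559427-95559726, plus strand), Stag3 (chr5:138280259-138280558, plus), Sycp1 (chr3:102936051-102936350, minus) and Sycp3 (chr10:88459337-88459636, plus) hold both motifs, and that of Hormad2 (chr11:4441033-4441332, minus) holds neither.
Hormad1: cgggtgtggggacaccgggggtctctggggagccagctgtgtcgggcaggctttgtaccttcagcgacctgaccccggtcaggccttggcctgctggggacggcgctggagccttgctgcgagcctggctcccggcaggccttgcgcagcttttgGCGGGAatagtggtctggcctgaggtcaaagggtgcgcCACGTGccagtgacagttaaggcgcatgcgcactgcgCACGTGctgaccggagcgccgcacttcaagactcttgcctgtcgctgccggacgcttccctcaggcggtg
Stag3: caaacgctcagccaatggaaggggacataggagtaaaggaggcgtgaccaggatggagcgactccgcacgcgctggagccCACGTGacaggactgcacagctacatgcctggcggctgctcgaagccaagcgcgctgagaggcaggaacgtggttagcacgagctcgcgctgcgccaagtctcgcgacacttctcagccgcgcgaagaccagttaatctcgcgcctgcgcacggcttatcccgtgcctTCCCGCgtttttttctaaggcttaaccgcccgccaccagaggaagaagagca
Sycp1: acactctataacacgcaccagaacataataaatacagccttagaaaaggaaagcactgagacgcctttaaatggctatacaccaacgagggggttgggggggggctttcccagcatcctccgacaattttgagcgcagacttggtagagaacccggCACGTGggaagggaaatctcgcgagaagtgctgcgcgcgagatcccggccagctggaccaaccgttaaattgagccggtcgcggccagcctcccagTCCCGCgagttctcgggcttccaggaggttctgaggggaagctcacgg
Sycp3: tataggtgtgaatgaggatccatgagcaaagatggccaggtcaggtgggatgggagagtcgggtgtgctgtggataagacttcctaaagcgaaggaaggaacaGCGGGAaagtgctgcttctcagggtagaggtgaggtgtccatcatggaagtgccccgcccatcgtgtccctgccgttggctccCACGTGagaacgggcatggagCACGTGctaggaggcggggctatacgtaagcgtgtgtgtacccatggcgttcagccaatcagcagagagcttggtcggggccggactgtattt
Hormad2: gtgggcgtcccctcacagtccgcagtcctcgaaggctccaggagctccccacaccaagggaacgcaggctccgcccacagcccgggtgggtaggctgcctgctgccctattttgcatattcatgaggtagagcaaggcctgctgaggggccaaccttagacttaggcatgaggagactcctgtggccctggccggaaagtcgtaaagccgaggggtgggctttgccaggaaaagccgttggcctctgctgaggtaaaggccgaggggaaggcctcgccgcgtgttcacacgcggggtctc
Of these 5 genes, Sycp3 alone had no lower value for the mean of both hairpins. Rec8, whose window holds TCCCGC but no CACGTG, had no lower value either (0.11). The windows of Sycp2 (-0.48), Syce1 (-0.15) and Mei4 (0.58) hold neither motif. A match is a description of the sequence and no evidence of binding.

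Mettl3 encodes the catalytic subunit of the RNA m6A methyltransferase. It was at 8.97 and 8.67 with hairpin 1 and at 8.71 and 8.66 with hairpin 2, against 10.38, 10.46 and 10.14 with luciferase. The 4 knockdown arrays lay below all 3 luciferase arrays (log2 fold change -1.57 ± 0.105, SE, limma adjusted p = 0.000116 for both hairpins). Of 8 embryonic stem cell markers none was called, and 1 had an unadjusted limma p below 0.05, as had 3958 of all 16353 genes. Their mean level per array was 12.19 to 12.31 with the Mettl3 hairpins and 12.24 to 12.38 with luciferase. The 2 largest differences among them were those of Dppa5a (-0.27, adjusted p = 0.0892) and Zfp42 (0.14, adjusted p = 0.333). On the second principal component of all genes (21.4% of the variance) hairpin 1 replicate 2 (-17.8) and luciferase replicate 3 (-10.4) lay apart from the other arrays (1.1 to 11.5), and values without them are given where they differ.

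A gene value is, for each array, the median of those probe sets of the gene that averaged more than 6.02 on the arrays (6.02 being the midpoint of all probe sets). All 9 genes found by symbol had at least 3 such probe sets and were measured, with 152 of their 230 probe sets kept. All 40 probe sets of Stag3 and all 14 of Syce1 were kept, but only 14 of 42 for Sycp2 and 17 of 36 for Tex11. Values for both hairpins are the mean of hairpin 1 and hairpin 2 minus luciferase. Of the 9 genes, 7 had lower values by this mean, 8 with hairpin 1 and 6 with hairpin 2, with a median log2 fold change of -0.32 for both hairpins over the 9, while the median over all 16353 genes was 0.00045. Hormad1, Hormad2, Sycp2 and Stag3, 4 of the 9, were called lower in the limma fit over all genes (Benjamini-Hochberg adjusted p below 0.05), a call made for 2.37% of all genes, and none was called higher (5.53% of all genes). All 4 knockdown arrays lay below all 3 luciferase arrays for the same 4 genes (8.40% of all genes), and above them for Rec8 (13.4%). Kept probe sets just inside the limit (6.05 to 6.06) differed by -0.27 in Sycp3, -0.81 in Sycp1 and -0.06 in Sycp2, and dim ones just outside (5.96 to 6.01) by 0.04 in Sycp3, -0.32 in Sycp2 and -0.56 in Hormad2. Since the genes were picked from this comparison, nothing is read from that count.

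**Figure D1:**
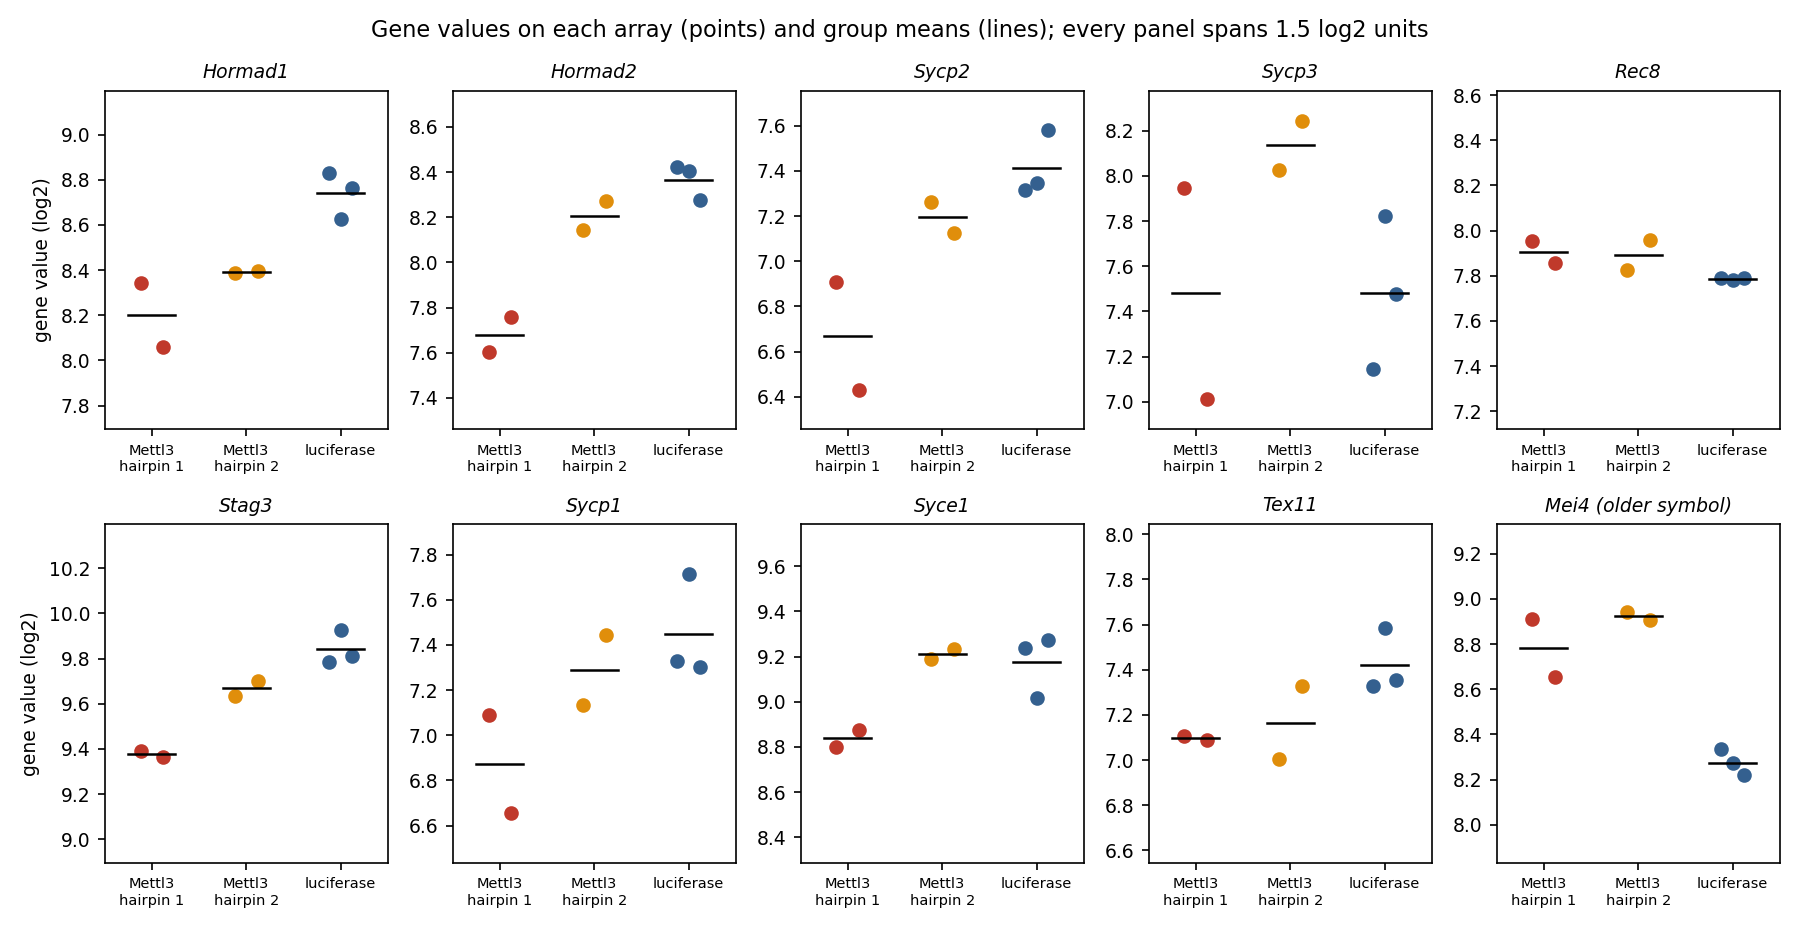
Gene value (log2, vertical axis) of each gene on each array, with Mettl3 hairpin 1, Mettl3 hairpin 2 and luciferase from left to right; points are arrays and lines are group means. Hormad1, Hormad2, Sycp2 and Stag3 have all 4 knockdown arrays below the 3 luciferase arrays, Rec8 and Mei4 have them above, and each panel spans 1.5 units.

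The HORMA domain genes come first among axis components. Hormad1, on chromosome 3, was at 8.34 and 8.06 with hairpin 1 and at 8.39 and 8.40 with hairpin 2, against 8.83, 8.63 and 8.77 with luciferase. All 4 knockdown arrays were below the luciferase arrays, and the difference was -0.54 (95% interval -0.79 to -0.29) for hairpin 1 and -0.35 (-0.60 to -0.10) for hairpin 2. At the level of single probe sets, all 11 kept ones and all 4 dim ones were lower with each hairpin, with kept medians of -0.65 for hairpin 1 and -0.62 for hairpin 2. Its brightest probe set was at 11.79 and 11.52 with hairpin 1 and 11.55 and 11.58 with hairpin 2, against 12.20, 12.38 and 12.14 with luciferase. The gene value understates what most probe sets show, since the mean of the kept probe sets gave -0.63 for both hairpins and the median gave -0.44.

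Hormad2, on chromosome 11, encodes a related axis protein of the surveillance of unsynapsed chromosomes. It was at 7.60 and 7.76 with hairpin 1 and at 8.14 and 8.27 with hairpin 2, against 8.42, 8.41 and 8.27 with luciferase. The hairpin 1 arrays were far below the others, whereas the higher hairpin 2 array nearly reached the lowest luciferase array. The difference was -0.69 (95% interval -0.91 to -0.46) for hairpin 1 and -0.16 (-0.38 to 0.06) for hairpin 2. All 10 kept probe sets were lower with hairpin 1 (median -0.80) and 9 of 10 with hairpin 2, there by little (median -0.10).

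The axis filament genes did not share a direction. Sycp2, on chromosome 2, was at 6.91 and 6.43 with hairpin 1 and at 7.26 and 7.12 with hairpin 2, against 7.32, 7.35 and 7.58 with luciferase. Hairpin 1 gave the larger difference (-0.75, 95% interval -1.07 to -0.42), and replicate 2 of that hairpin was the lowest array; without it the difference was -0.51. With hairpin 2 the gene value was -0.22 (-0.55 to 0.11), but only 5 of 14 kept probe sets were lower, their median was 0.10, and the mean of probe sets (0.09), median polish (0.13) and the stricter filter on dim probe sets (0.02) turned the sign. Sycp3, on chromosome 10, whose protein coats the axis together with SYCP2, was at 7.95 and 7.01 with hairpin 1 and at 8.03 and 8.24 with hairpin 2, against 7.15, 7.82 and 7.48 with luciferase. Its hairpin 1 arrays spanned the luciferase arrays and its hairpin 2 arrays lay above all of them. The differences were 0.00 (-0.57 to 0.57) for hairpin 1 and 0.65 (0.08 to 1.22) for hairpin 2. The hairpin 1 value was 0.47 without its replicate 2 and -0.47 without its replicate 1. Sycp3 had the widest spread between replicates of the 9 genes (SD 0.66 within hairpin 1).

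Among the cohesin genes, Stag3 and Rec8 went different ways. Stag3, on chromosome 5, encodes a meiotic STAG subunit and was at 9.39 and 9.37 with hairpin 1 and at 9.64 and 9.70 with hairpin 2, against 9.79, 9.93 and 9.81 with luciferase. The 3 groups did not overlap, with hairpin 1 lowest and hairpin 2 between it and luciferase. The difference was -0.46 (95% interval -0.67 to -0.26) for hairpin 1 and -0.17 (-0.38 to 0.03) for hairpin 2. All 40 probe sets were lower with hairpin 1 and 37 of 40 with hairpin 2. Rec8, on chromosome 14, encodes the meiotic kleisin that joins the cohesin ring. It was at 7.95 and 7.86 with hairpin 1 and at 7.82 and 7.96 with hairpin 2, against 7.79, 7.78 and 7.79 with luciferase. Its luciferase arrays were close together (SD 0.0046) and the knockdown arrays lay slightly above, by 0.12 (-0.09 to 0.32) for hairpin 1 and 0.10 (-0.10 to 0.31) for hairpin 2. Of its 21 kept probe sets, 15 were higher and 6 lower for both hairpins, between -0.19 and 0.49.

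**Figure D2:**
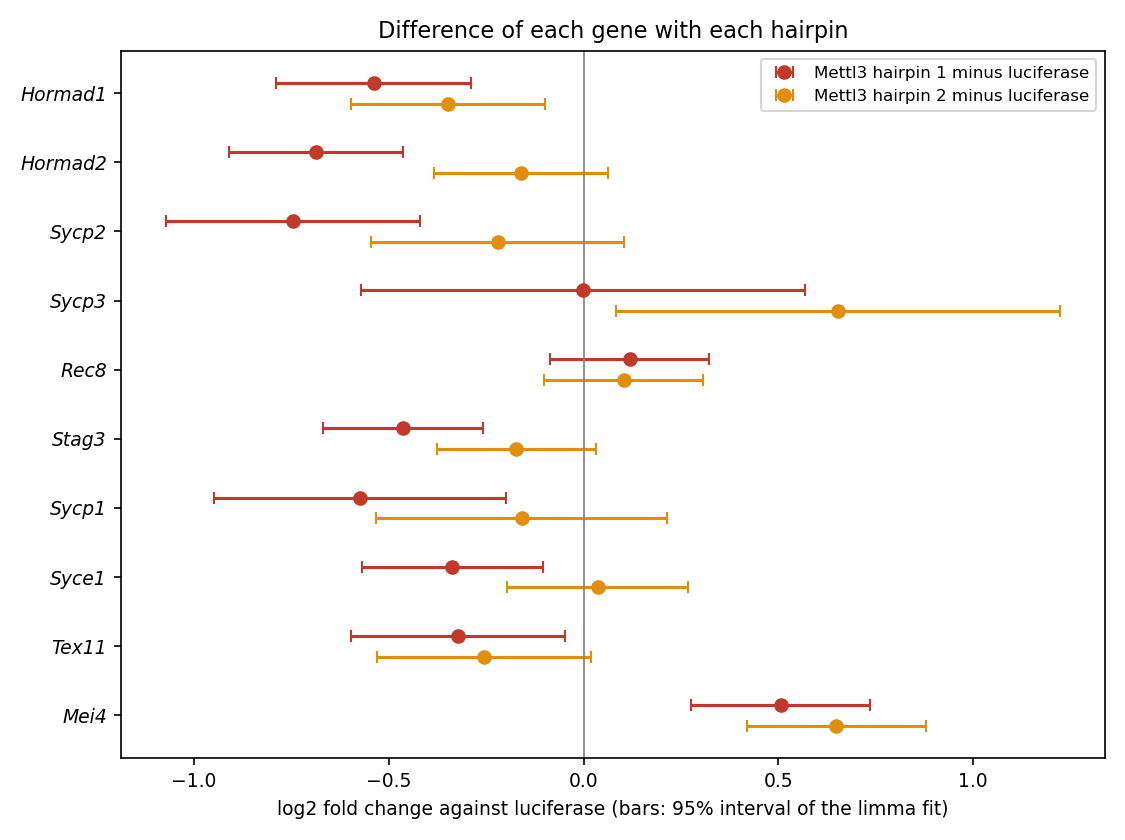
Log2 fold change against luciferase (horizontal axis) for Mettl3 hairpin 1 (upper point of each pair) and hairpin 2 (lower point), with the 95% interval of the limma fit. For Hormad2, Sycp2, Stag3, Sycp1 and Syce1 the hairpin 1 point lies left of the hairpin 2 point by 0.29 to 0.53, and Rec8 lies near 0.11 with both.

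The genes of the central region were lower with hairpin 1 and differed less from luciferase with hairpin 2. Sycp1, on chromosome 3, encodes the transverse filament and was at 7.09 and 6.66 with hairpin 1 and at 7.14 and 7.44 with hairpin 2, against 7.33, 7.71 and 7.30 with luciferase. Only the hairpin 1 arrays lay below all luciferase arrays, and replicate 2 of hairpin 1 was the lowest. The difference was -0.57 (95% interval -0.95 to -0.20) for hairpin 1 and -0.16 (-0.53 to 0.22) for hairpin 2. Without hairpin 1 replicate 2 the hairpin 1 difference was -0.36, and the hairpin 2 difference was -0.01 without its replicate 1 and -0.31 without its replicate 2. Of 18 kept probe sets, 17 were lower with hairpin 1 (median -0.55) and 13 with hairpin 2 (median -0.06). Syce1, on chromosome 7, encodes a central element protein and was at 8.80 and 8.87 with hairpin 1 and at 9.19 and 9.24 with hairpin 2, against 9.24, 9.02 and 9.27 with luciferase. The hairpin 2 arrays lay within the luciferase range, and the differences were -0.34 (-0.57 to -0.11) for hairpin 1 and 0.04 (-0.20 to 0.27) for hairpin 2. Its probe sets split in the same way, since 13 of 14 were lower with hairpin 1 (median -0.53) and 2 of 14 with hairpin 2 (median 0.20).

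The recombination genes of the set, Tex11 and Mei4, lay on opposite sides of luciferase. Tex11, on the X chromosome, was at 7.11 and 7.09 with hairpin 1 and at 7.004 and 7.33 with hairpin 2, against 7.33, 7.59 and 7.35 with luciferase. Hairpin 2 replicate 2 reached the lowest luciferase array, and the differences were -0.32 (95% interval -0.60 to -0.05) for hairpin 1 and -0.26 (-0.53 to 0.02) for hairpin 2. Of its 17 kept probe sets 16 were lower with hairpin 1 and 14 with hairpin 2, and of its 19 dim ones 18 were lower with hairpin 1 and 15 with hairpin 2. Its hairpin 2 difference was -0.09 without replicate 1 of that hairpin and -0.42 without replicate 2. Mei4, on chromosome 9, under its older symbol, was at 8.91 and 8.65 with hairpin 1 and at 8.94 and 8.90 with hairpin 2, against 8.33, 8.27 and 8.22 with luciferase. All 4 knockdown arrays were above the luciferase arrays, by 0.51 (0.28 to 0.74) for hairpin 1 and 0.65 (0.42 to 0.88) for hairpin 2. Its probe sets did not move as one: of 9 kept, 4 were higher by at least 0.5 for both hairpins and 2 were lower, and the mean of probe sets gave 0.33 and all 12 probe sets 0.14.

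**Figure D3:**
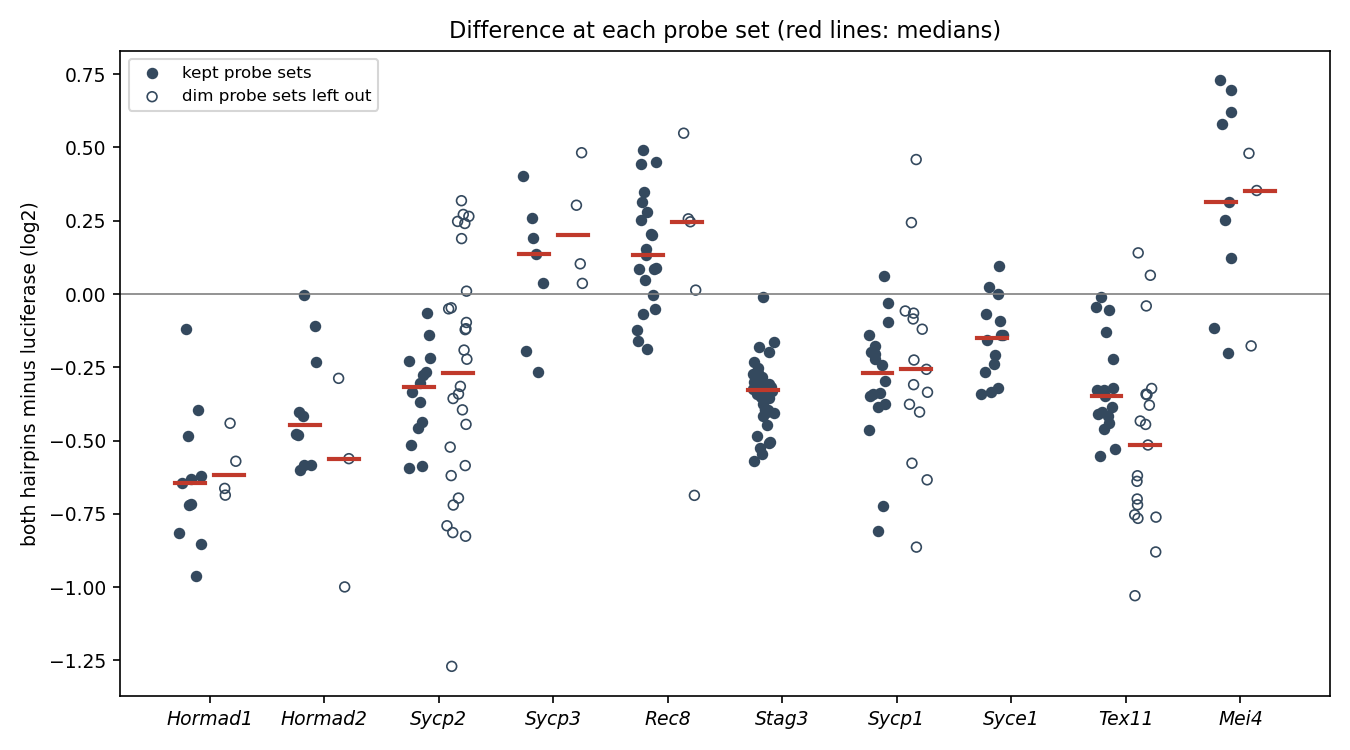
Mean of both Mettl3 hairpins minus luciferase (log2, vertical axis) at every probe set of each gene; filled points were kept, open points were dim and left out, and red lines are medians. All kept probe sets of Hormad1, Hormad2, Sycp2, Stag3 and Tex11 lie below 0, while those of Rec8, Sycp3 and Mei4 lie on both sides.

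Whether single exons departed from their gene was tested with limma's diffSplice, a measure that the gene-level difference does not fix. It called 4.97% of 16353 genes and none of the 9 (lowest adjusted p = 0.176, Rec8; 1 of the 9, Rec8, had an unadjusted p below 0.05). With the stricter filter Rec8 passed (adjusted p = 0.0251). Mei4 passed (adjusted p = 0.00861), with probe sets that departed from the gene by -0.60, -0.51 and 0.45. The call for Mei4 was lost without luciferase replicate 1 (adjusted p = 0.149), luciferase replicate 3 (0.109), hairpin 2 replicate 1 (0.0697) or hairpin 2 replicate 2 (0.141), without a filter on dim probe sets (0.0885), and with a replicate block (0.347). In Hormad1 a probe set departed from the gene by 0.56 (adjusted p = 0.29).

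The difference between the hairpins was set out for each gene. Values were lower with hairpin 1 than with hairpin 2 for 8 of 9 genes, and for 7 of these every hairpin 1 array lay below every hairpin 2 array, an order found for 22.2% of all genes. The difference, hairpin 1 minus hairpin 2, was -0.65 (95% interval -1.28 to -0.03) for Sycp3, -0.53 (-0.77 to -0.28) for Hormad2, -0.52 (-0.88 to -0.17) for Sycp2, -0.41 (-0.83 to 0.00) for Sycp1, -0.37 (-0.63 to -0.12) for Syce1 and -0.29 (-0.51 to -0.07) for Stag3. For Hormad1 it was -0.19 (-0.46 to 0.08), for Tex11 -0.07 (-0.37 to 0.23) and for Rec8 0.02 (-0.21 to 0.24). Several of these rest on hairpin 1 replicate 2, an array that lay apart: without it the difference was -0.19 for Sycp3, -0.29 for Sycp2, -0.20 for Sycp1 and -0.05 for Hormad1. Without it Hormad2 was at -0.60, Syce1 at -0.41 and Stag3 at -0.28. Without hairpin 1 replicate 1 Sycp3 was at -1.12, Sycp1 at -0.63 and Hormad1 at -0.33, and Sycp1 was at -0.26 without hairpin 2 replicate 2. None of the 9 was called in the limma fit over all genes, and the call was made for 0.104% of all genes. At an unadjusted p below 0.05 there were 6 of the 9, and 1435 of all 16353 genes. When probe sets were summarised by their mean or by median polish, Sycp2 and Syce1 were called, and with the stricter filter Sycp2 was. In place of 17 genes, the mean called 79 of 16353, median polish 76 of 16353 and the stricter filter 34 of 12271. The hairpin 1 arrays lay below all luciferase arrays for 7 of 9 genes (17.3% of all genes) and above for 1 (20.9%), and the hairpin 2 arrays below for 4 (15.4%) and above for 2 (22.9%). Mettl3 itself did not differ detectably between the hairpins (0.14, 95% interval -0.17 to 0.44). Each hairpin shares the 3 luciferase arrays with the other in its own comparison: 4 of 9 genes were called lower with hairpin 1 (1.93% of all genes) and none higher (3.97%). With hairpin 2, 0 were called lower (1.08%) and 0 higher (2.71%), and 2 of 9 had an unadjusted p below 0.05, as had 3059 of all 16353 genes. Hormad1 was called lower with hairpin 2 under the mean, median polish and the stricter filter. In that order these called 497, 416 and 292 of all genes lower with hairpin 2, in place of 176.

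Calls of these genes rested on few arrays, and calls over all genes also fell when an array was left out. For both hairpins the 4 calls became 0 without luciferase replicate 1, 2 without luciferase replicate 2 and 1 without luciferase replicate 3. With no filter on dim probe sets there were 0 calls. Leaving out an array of either hairpin left 1 array in that group, so calls from those fits are not counted here. Over all genes, calls lower for both hairpins went from 388 to 155, 245 and 267 without luciferase replicates 1, 2 and 3. With no filter they were 126 of 19993. For hairpin 1 alone the 4 calls became 2 without luciferase replicate 1 and 3 without luciferase replicate 3. They became 0 with no filter on dim probe sets and 2 with a replicate block. Over all genes, calls lower with hairpin 1 went from 315 to 129 without luciferase replicate 1 and 236 without luciferase replicate 3. They were 99 with no filter and 173 with a replicate block. For both hairpins, with both arrays that lay apart left out, Hormad2 was at -0.51, Hormad1 at -0.36, Sycp2 at -0.28 and Stag3 at -0.33. All 9 genes kept the sign of this difference under each of the 16 alternatives.

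Other genes of meiosis, mitotic cohesin genes and genes of the PRC1.6 and E2F6 repressors were taken from lists made by function. Of 70 listed genes 60 were measured. For both hairpins 4 were called lower and 2 higher, against 2.37% and 5.53% of all genes. Their median was -0.03, with 35 of 60 below 0. The 60 hold 12 mitotic cohesin genes (median -0.02) and 12 PRC1.6 and E2F6 genes (median 0.04), and none of these was called. An unadjusted limma p below 0.05 was found for 14 of the 60, and for 3958 of all 16353 genes. The remaining meiotic cohesin gene measured, Smc1b, whose protein replaces SMC1A in meiotic cohesin, was at 7.17 and 7.07 with hairpin 1 and at 7.02 and 7.13 with hairpin 2, against 7.70, 7.99 and 7.70 with luciferase. It fell by 0.69 ± 0.095 (SE, adjusted p = 0.00276) and the arrays of the groups did not overlap. None of the 12 mitotic cohesin genes was called (1 at an unadjusted p below 0.05; median -0.02), and the largest differences were those of the kleisin gene Rad21 (-0.20, adjusted p = 0.125) and of Smc3 (-0.18, adjusted p = 0.282).

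Of 5 genes of meiotic break formation 3 had an unadjusted limma p below 0.05, Rec114 and Spo11 (-0.22) lower and Iho1 (0.23) higher. Over all genes 3958 of 16353 had such a p, and 2.37% were called lower and 5.53% higher. Of the 5 genes 1 was called, Rec114, whose protein forms a complex with MEI4. It was at 7.60 and 7.60 with hairpin 1 and at 7.30 and 7.56 with hairpin 2, against 7.91, 8.04 and 8.22 with luciferase, and fell by 0.54 (± 0.100, SE, adjusted p = 0.0107). The call was lost with a replicate block (-0.46, adjusted p = 0.0504) and with both arrays that lay apart left out (-0.46, adjusted p = 0.0704), and held in the other 14 of 16 alternatives. The gene value of Mei4, the partner gene, was thus higher in the same arrays in which that of Rec114 was lower. Of the 9 kept probe sets of Mei4, 2 were lower for both hairpins. Of 13 recombination genes Mnd1, which acts with the strand exchange protein DMC1, was called higher (0.31, adjusted p = 0.0458) and in 2 of 16 alternatives; the call was lost without any 1 of the 7 arrays (0.26 to 0.35, adjusted p = 0.0663 to 0.155) and after centring (0.25, adjusted p = 0.112).

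Of 8 genes of meiotic entry, 2 were called lower and 1 higher, against 2.37% and 5.53% of all genes. Dazl, a germ cell translation regulator, was at 8.67 and 8.52 with hairpin 1 and at 8.64 and 8.74 with hairpin 2, against 9.50, 9.60 and 9.46 with luciferase (-0.88 ± 0.081, SE, adjusted p = 0.000413). Tex14, which keeps the bridges between germ cells open, fell by 0.47 (adjusted p = 0.00941), a call that was lost without the filter on dim probe sets (-0.48, adjusted p = 0.064). Bhmg1, also called Meiosin, encodes a partner of STRA8 in meiotic entry and rose by 0.37 (adjusted p = 0.017). Its call was lost without luciferase replicate 1 (0.40, adjusted p = 0.0549), luciferase replicate 2 (0.33, adjusted p = 0.0569), hairpin 2 replicate 2 (0.37, adjusted p = 0.0682), and with both arrays that lay apart left out (0.40, adjusted p = 0.0616). It was also lost with no filter (0.34, adjusted p = 0.0997), the stricter filter (0.15, adjusted p = 0.176), median polish (0.18, adjusted p = 0.0502) and a replicate block (0.40, adjusted p = 0.0698), and held in 8 of 16 alternatives. None of 3 other synaptonemal complex genes was called (1 at an unadjusted p below 0.05), with Syce3, a central element gene, at -0.46 (adjusted p = 0.0604) and Syce2 at 0.08 (adjusted p = 0.575). None of 6 genes of telomere attachment and the synapsis checkpoint was called (2 at an unadjusted p below 0.05), with Majin at -0.27 (adjusted p = 0.223) and Terb2 at -0.24 (adjusted p = 0.158). None of 12 genes of PRC1.6 and E2F6 was called, with a median of 0.04. Of these, 0 had an unadjusted limma p below 0.05, against 3958 of all 16353 genes. Rnf2 was at -0.19 (adjusted p = 0.282) and Yaf2 at 0.15 (adjusted p = 0.284).

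**Figure D4:**
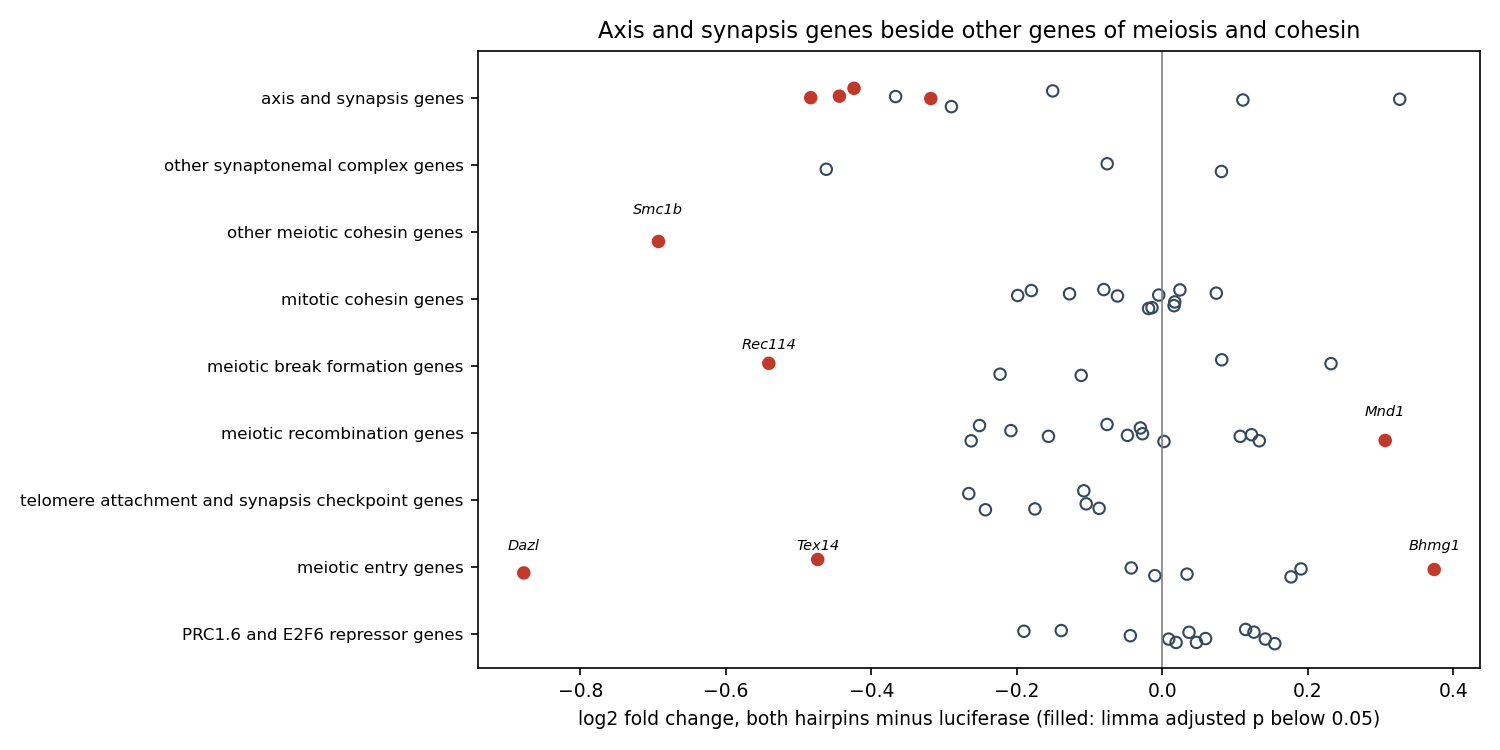
Log2 fold change of both Mettl3 hairpins minus luciferase (horizontal axis) for the 9 axis and synapsis genes and for the lists of other meiotic, cohesin and repressor genes; each point is a gene, and filled points had a limma adjusted p below 0.05. Smc1b, Rec114, Dazl and Tex14 are the called genes to the left outside the first row and Mnd1 and Bhmg1 those to the right.

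Markers of cells that use these genes were measured on the same arrays. For both hairpins, 3958 of all 16353 genes had an unadjusted limma p below 0.05. Of 9 germ cell markers 1 was called, Mael, a gene of transposon silencing (-0.94, adjusted p = 0.00207). Over all genes 2.37% were called lower. At an unadjusted limma p below 0.05 there were 3 of the 9, Mael lower and Tdrd1 (0.22) and Prdm1 (0.24) higher. Of the 9, 6 lay below 0. The mean level of the list per array was 8.16 to 8.49 with the Mettl3 hairpins and 8.37 to 8.50 with luciferase. The germ cell helicase gene Ddx4 was at 9.41 and 9.12 with hairpin 1 and at 10.05 and 10.02 with hairpin 2, against 9.52, 9.83 and 9.42 with luciferase (0.06 for both hairpins, adjusted p = 0.789). No spermatid marker of 5 and no oocyte marker of 7 was called (1 of each at an unadjusted p below 0.05), and their mean levels were 7.14 to 7.36 and 7.05 to 7.18 with the Mettl3 hairpins, against 7.26 to 7.46 and 7.06 to 7.37 with luciferase. None of 10 markers of fibroblasts, the usual feeder cells, was called (2 at an unadjusted p below 0.05), with mean levels of 7.11 to 7.36 with the Mettl3 hairpins and 7.25 to 7.37 with luciferase. The largest differences were Pdgfra (-0.29, adjusted p = 0.0971) and Pdgfrb (-0.19, adjusted p = 0.241) among fibroblast markers, Tex101 (-0.27, adjusted p = 0.141) and Prm1 (0.21, adjusted p = 0.426) among spermatid markers, and Bmp15 (-0.55, adjusted p = 0.0946) and Nobox (0.15, adjusted p = 0.444) among oocyte markers. Their part in the values of the axis and synapsis genes was not tested.

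The median profile of the 9 genes over the 7 arrays, each gene centred on its mean, was -0.15 and -0.37 with hairpin 1 and -0.02 and 0.11 with hairpin 2, against 0.13, 0.21 and 0.15 with luciferase. Hairpin 1 replicate 2 was lowest and hairpin 2 replicate 2 came close to luciferase. Among named genes outside all lists, the profiles nearest to it were those of Fry, Dnaaf4, Crebl2, Zfp951 and C7, which differed from it by a root mean square of 0.029 to 0.051 over the 7 arrays.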

How the data were processed

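The authors deposited log2 expression values of 1201338 probe sets on 7 arrays; the submitters' processing notes list RMA and R 2.11.1. Their RMA package, probe set definition and genome build were not given in the sources used here. Because this method draws arrays to 1 distribution, a shift of most transcripts would not be seen. Precision is limited by how few arrays there are. Symbols came from the platform annotation (311384 probe sets with 1 symbol, 6385 with several, 883569 with none), and older ones were updated through RefSeq synonyms (GRCm38.p6) for 45560. Gene values (medians of at least 3 kept probe sets, 229811 in all) entered a limma fit (version 3.58.1, R 4.3.3) on all 7 arrays with 1 mean per group (4 residual degrees of freedom), and p-values were adjusted over 16353 genes. Intervals are 95% intervals of this fit. The analysis was also run on simulated data in which each gene varied independently among arrays. That run held no arrays that lay apart, so it does not check their effect. The genes, lists and tests were chosen with earlier results of these data known. Named from the lists were up to 3 called genes each, or the 2 largest differences where none was called, and the 5 nearest profiles. Ddx4, outside this rule, was named after its values were seen. The alternatives tried were no filter and a stricter filter on dim probe sets, mean or median polish, centring, quantile normalization, a replicate block, a trended robust spread, leaving out each array, and, added after the data were seen, leaving out 2 arrays that lay apart.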

Additional observations from a re-analysis of the deposited data

How the results depend on the processing

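Over all genes, calls for both hairpins numbered 1292 (904 higher, 388 lower; 696 and 703 after centring), for hairpin 1 964, for hairpin 2 619 and between the hairpins 17. In that order they were 484, 320, 92 and 0 without a filter on dim probe sets. Of the listed meiotic, cohesin and repressor genes, grouped here as other meiotic genes, 3 were called in place of 6. Calls over all genes were 2840, 2259, 1626 and 79 with the mean of probe sets and 2469, 2072, 1439 and 76 with median polish. With the stricter filter hairpin 1 gave 1503, hairpin 2 gave 1073 and their difference 34, and with a trended robust spread the difference gave 29. Deviations of same-numbered replicates from their group means correlated by -0.262 to 0.0833. With 2 arrays per hairpin these few correlations cannot exclude a shared batch or pairing. A replicate block gave 540, 460, 208 and 3, with 3 other meiotic genes and 1 axis or synapsis gene called, Hormad2. Leaving out 1 array gave 605 to 1098, 271 to 729, 63 to 577 and 0 to 4, and 4 to 5 other meiotic genes. Without both arrays that lay apart the counts were 705, 266, 317 and 0, with 3 other meiotic genes. Exon usage was called for 1 of the 9 genes with the stricter filter and for 0 under the other alternatives run. No call of a named gene changed direction. Causes were not tested. Signal over background was not analysed here, so the precision of dim probe sets is unknown.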
